A study of Homo sapiens with 4 samples.

Results

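MYOD sites that were called in control RD cells and not in SKP2-knockdown RD cells were examined. They were selected on measured values: a MYOD peak of the control list counted as control-only when no MYOD peak of the knockdown list overlapped it by 1 bp or more. This held for 2086 of the 5814 control peaks on chromosomes 1 to 22, X and Y, or 35.9% (Wilson 95% interval 34.7 to 37.1), and the other 3728 control peaks are called kept. The knockdown list held 8457 MYOD peaks, 4730 of them knockdown-only, so both MYOD lists together held 14271.

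Chromatin immunoprecipitation with sequencing was performed for MYOD and for the histone mark H3K27ac in RD, an established human cell line of fusion-negative rhabdomyosarcoma (FN-RMS). The shSKP2 cells expressed a short hairpin RNA against SKP2, the substrate-binding subunit of an SCF ubiquitin ligase, from a lentiviral vector, and the shSCR control cells expressed a non-targeting hairpin from the same kind of vector. Each of the 4 groups (shSKP2 MYOD, shSCR MYOD, shSKP2 H3K27ac, shSCR H3K27ac) was 1 library, so the spread among repeat experiments is unknown and all intervals cover counting error only. At the promoters of 10 muscle-lineage marker genes, H3K27ac was called at 6 in the knockdown and 6 in the control, and at 0 of 10 promoters of other cell types in either, while MYF5, DES and PAX7 carried no H3K27ac call in either list. FGFR4 was marked in the control alone and ACTC1 in the knockdown alone.

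MYOD is the basic helix-loop-helix factor that commits cells to the skeletal muscle lineage. It binds DNA as a dimer with an E protein at E-boxes, the pattern CANNTG, in which N is any base, with CAGCTG among its preferred forms. In FN-RMS cells MYOD is expressed and bound to DNA although the cells do not complete differentiation. H3K27ac marks the nucleosomes beside active promoters and enhancers, and factor-bound DNA often lies in the gap between marked nucleosomes.

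A peak that is missing from a list only failed to reach the calling threshold there. It does not show that MYOD was absent, and in a bulk library fewer occupied cells and less binding per cell cannot be told apart. Total read numbers were not given in the lists. The lowest local background at any MYOD peak, which rises with depth, was 1.94 fragments in the knockdown and 1.48 in the control, a ratio of 1.31.

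The 12 control-only peaks of highest score are the sites at which a strong control call was missing from the knockdown list, so the 81 bases around their summits are shown, with every E-box in capitals. Not all of the 12 sites are printed.

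PPP1CB (hg38 chr2:28717605-28717685, plus strand): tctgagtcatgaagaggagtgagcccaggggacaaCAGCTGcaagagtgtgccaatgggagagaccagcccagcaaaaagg
NTMT2 (hg38 chr1:170162976-170163056, plus strand): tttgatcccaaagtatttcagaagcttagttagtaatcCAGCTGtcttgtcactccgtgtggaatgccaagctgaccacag
PMAIP1 (hg38 chr18:59958171-59958251, plus strand): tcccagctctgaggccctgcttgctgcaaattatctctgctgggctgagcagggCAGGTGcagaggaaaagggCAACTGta
SLBP intron (hg38 chr4:1696062-1696142, plus strand): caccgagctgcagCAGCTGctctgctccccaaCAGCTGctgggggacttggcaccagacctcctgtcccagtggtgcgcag
CAMK2B intron (hg38 chr7:44226014-44226094, plus strand): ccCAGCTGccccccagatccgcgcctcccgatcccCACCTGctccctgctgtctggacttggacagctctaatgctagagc
Chromosome 3 site (hg38 chr3:14289707-14289787, plus strand): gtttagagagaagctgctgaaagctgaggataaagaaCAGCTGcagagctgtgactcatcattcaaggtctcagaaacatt
MAN1C1 intron (hg38 chr1:25729882-25729962, plus strand): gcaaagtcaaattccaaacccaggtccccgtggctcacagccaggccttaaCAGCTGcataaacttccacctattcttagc
Chromosome 5 site (hg38 chr5:74040216-74040296, plus strand): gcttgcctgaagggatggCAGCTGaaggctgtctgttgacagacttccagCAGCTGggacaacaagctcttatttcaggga
Chromosome 12 site (hg38 chr12:75706083-75706163, plus strand): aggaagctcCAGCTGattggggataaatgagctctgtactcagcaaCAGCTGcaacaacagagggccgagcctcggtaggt
Chromosome 4 site (hg38 chr4:30619718-30619798, plus strand): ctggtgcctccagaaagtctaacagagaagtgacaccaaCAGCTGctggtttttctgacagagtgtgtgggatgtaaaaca

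CAGCTG was found within 100 bp of the summit in 10 of these 12 peaks, and an E-box of some form in all 12. At several sites the E-box lay at the summit itself. The centre of CAGCTG was 0.5 bp from the summit at NTMT2 and at the chromosome 3 site, 1.5 bp at the chromosome 4 site and 2.5 bp at PPP1CB. At PMAIP1 CAGCTG lies outside the printed bases, which hold CAGGTG and CAACTG. Further sites named in the results below are shown because they carried H3K27ac in 1 list alone (ID1, HNRNPLL) or lay at genes of muscle and of rhabdomyosarcoma (FGFR4, TCF12, ITGA7, SMPX).

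ID1 (hg38 chr20:31596236-31596316, plus strand): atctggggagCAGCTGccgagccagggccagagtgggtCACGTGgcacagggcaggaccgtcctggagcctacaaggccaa
HNRNPLL (hg38 chr2:38607973-38608053, plus strand): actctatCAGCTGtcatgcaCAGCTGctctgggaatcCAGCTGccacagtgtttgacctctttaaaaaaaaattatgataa
FGFR4 site 1 (hg38 chr5:177098575-177098655, plus strand): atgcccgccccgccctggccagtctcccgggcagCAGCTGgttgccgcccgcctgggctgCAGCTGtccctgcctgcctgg
FGFR4 site 2 (hg38 chr5:177100839-177100919, plus strand): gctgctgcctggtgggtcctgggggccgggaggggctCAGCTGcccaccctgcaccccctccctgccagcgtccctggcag
FGFR4 site 3 (hg38 chr5:177105875-177105955, plus strand): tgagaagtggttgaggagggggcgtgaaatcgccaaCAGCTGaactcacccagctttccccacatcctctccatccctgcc
TCF12 (hg38 chr15:57245197-57245277, plus strand): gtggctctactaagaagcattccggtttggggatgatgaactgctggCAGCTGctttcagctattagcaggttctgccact
ITGA7 (hg38 chr12:55704285-55704365, plus strand): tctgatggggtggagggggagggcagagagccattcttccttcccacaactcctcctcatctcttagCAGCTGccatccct
SMPX (hg38 chrX:21742047-21742127, plus strand): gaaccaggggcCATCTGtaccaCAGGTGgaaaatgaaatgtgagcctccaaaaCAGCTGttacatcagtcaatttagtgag

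HNRNPLL has 3 CAGCTG in the printed window, and FGFR4 site 1 has 2.

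The control-only peaks were weaker calls than the kept ones. Fold and score come from the same lists as the selection and are given as a description. Their median fold enrichment over local background was 4.61, against 6.54 at kept peaks, and their range was 2.70 to 16.2. Behind these folds stood a median of 15 fragments at the summit, with 8 as the lowest and 68 as the highest value, against a median of 25 at kept peaks. The median -log10 p, the score of a call, was 7.92 at control-only and 15.8 at kept peaks, and the median width was 230 and 300 bp. Still, 330 control-only peaks (15.8%) were at or above the median fold of the kept peaks.

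**Figure D1:**
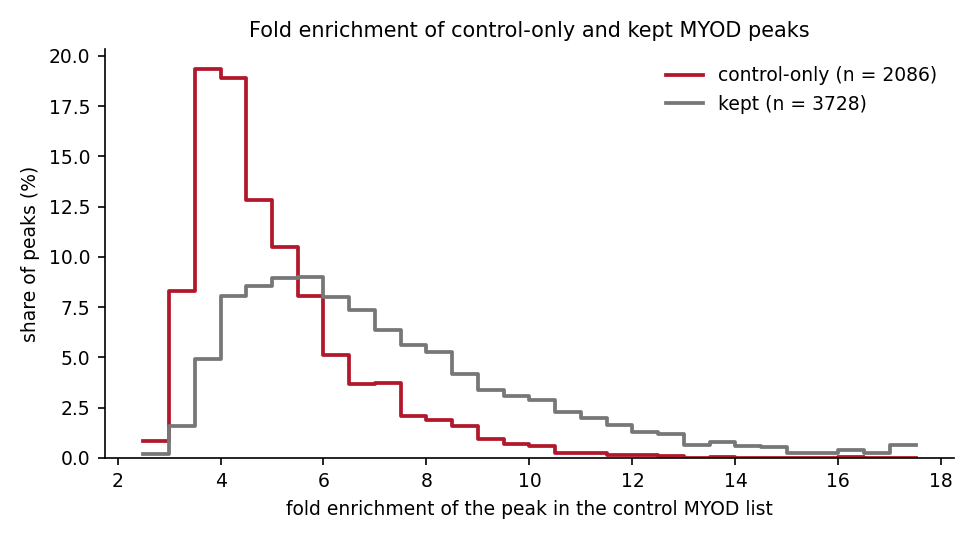
Share of peaks (%) against fold enrichment in the control MYOD list in steps of 0.5, for 2086 control-only (red) and 3728 kept peaks (grey); the last step holds all higher folds. The control-only peaks crowd at low folds (median 4.61, against 6.54 for kept peaks), with a tail that reaches 16.2.

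Most control-only peaks had no knockdown MYOD peak within 12.5 kb. A kept peak lay within 12.5 kb of 11.0% of control-only peaks, and another kept peak within 12.5 kb of 11.9% of kept peaks. The distance to the nearest MYOD peak of the knockdown list had a median of 49.9 kb, and 434 control-only peaks (20.8%) had one within 12.5 kb, 108 within 1 kb and 17 within 100 bp. Just inside the limit were peaks at SNPH, PIGV and SYNM, which lay 9, 11 and 18 bp from a knockdown peak. Just outside it were kept peaks near PSD3, NR2F6 and PCSK1, overlapped by 1, 8 and 8 bp.

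The strongest control-only peak lay between genes, -34.2 kb from the TSS of PPP1CB, which encodes a catalytic subunit of protein phosphatase 1 (negative distances are upstream). It had 65 fragments at the summit and a 16.2-fold enrichment, and the nearest knockdown MYOD peak was 34.0 kb away. A peak in intron 2 of NTMT2, an N-terminal methyltransferase gene, had 68 fragments and 11.9-fold enrichment, with no knockdown peak for 192 kb. The peak 58.2 kb downstream of the TSS of PMAIP1, the gene of the pro-apoptotic protein NOXA, had 55 fragments and 12.6-fold enrichment. These 3 sites had the highest scores of the control-only class, and none had a knockdown MYOD peak within 20 kb. The same held for 1486 of all 2086 control-only peaks.

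Some of the highest peaks lay in the introns of genes other than the one with the nearest start. The peak closest to the TSS of FAM53A was in intron 6 of SLBP, the histone mRNA stem-loop binding protein gene, with 49 fragments and 13.5-fold enrichment. The peak closest to YKT6 was in intron 20 of CAMK2B, which encodes a calcium/calmodulin-dependent kinase subunit, and had 55 fragments and 11.2-fold enrichment. At CAMK2B the nearest knockdown MYOD peak was 1.65 kb away. The peak closest to SELENON, a gene mutated in congenital muscle disease, was in intron 2 of MAN1C1 with 55 fragments and 11.0-fold enrichment. TNFSF4, the gene of OX40 ligand, had a peak with 64 fragments and 9.28-fold enrichment that carried H3K27ac in both lists. The central 31 bases of this TNFSF4 peak occur 13 times in hg38, so its reads may not be unique to the site. The other 5 of the 12 had no protein-coding TSS within 100 kb. None of the 12 peaks was at a promoter, 4 were in gene bodies and 8 between genes, and 10 had no knockdown peak within 20 kb.

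How often a control peak was control-only fell with its score. The share was 59.4% below a -log10 p of 10 (1378 of 2320 peaks), 28.3% from 10 to under 20 (551 of 1946) and 10.1% at 20 or more (157 of 1548). It also fell with the GC content within 100 bp of the summit. The share was 54.2% under 45% GC, 34.0% from 45 to under 55% and 29.1% at 55% or more. Within each score class the share was again higher at low GC. Among peaks at a -log10 p of 20 or more the share was 25.4% in the low GC class (68 of 268, interval 20.5 to 30.9), 11.2% in the middle class (64 of 571) and 3.53% in the high class (25 of 709, interval 2.40 to 5.15). The median GC content was 51.2% at control-only and 55.7% at kept peaks, and in windows 2 kb away 44.8% and 46.8%.

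The knockdown list showed a similar order at high scores and none at low ones. Of knockdown peaks at 20 or more, 26.9% were knockdown-only under 45% GC and 11.8% at 55% GC or more. Below a score of 10 these shares were 81.2% and 81.6%. The part of GC content in the control-only calls was not tested.

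**Figure D2:**
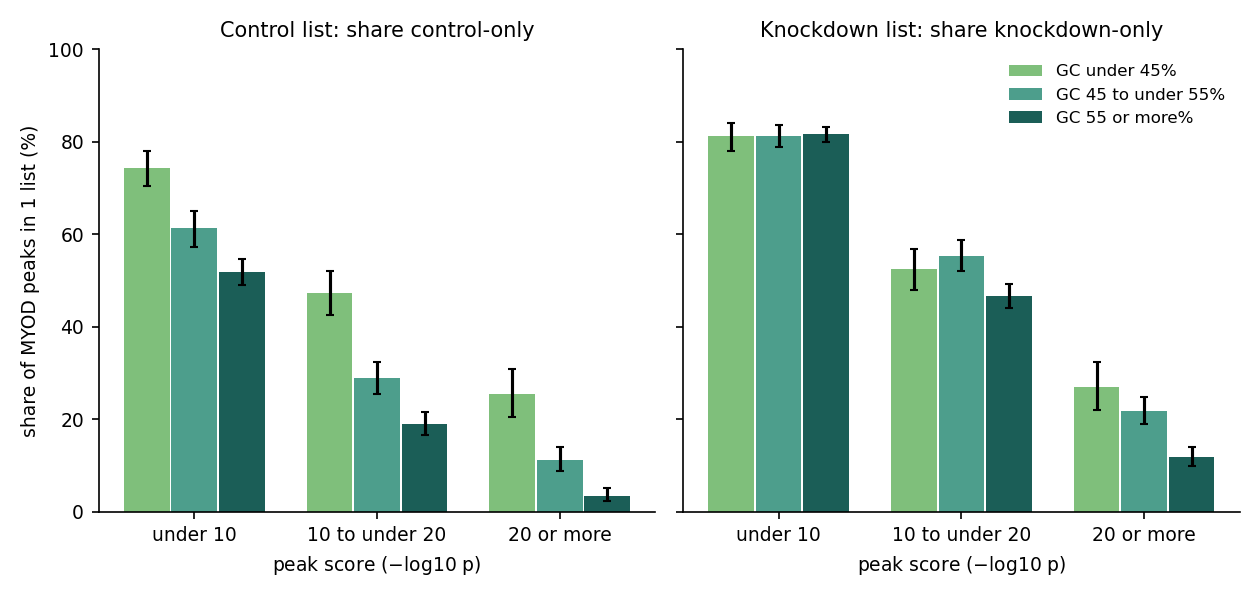
Share of MYOD peaks found in 1 list alone (%, bars with Wilson 95% intervals) by score (-log10 p) and by GC content around the summit, for the control list (left) and the knockdown list (right). In the control list the share falls with GC content in every score class, down to 3.53% of high-scoring GC-rich peaks; in the knockdown list the bars differ little below a score of 10.

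H3K27ac was called over control-only peaks more often in the knockdown than in the control, and the same held for the other MYOD peaks. An H3K27ac peak overlapped 952 of the 2086 sites in the knockdown (45.6%) and 629 in the control (30.2%). The difference over the same sites was 15.5 percentage points (95% interval 13.7 to 17.3). It was 19.4 points at kept peaks (18.0 to 20.9) and 17.4 at knockdown-only peaks (16.2 to 18.5), so the rise was not particular to the control-only class. At 371 sites (17.8%) the mark was called in the knockdown alone, beside 20.3% over all control MYOD peaks. At 48 sites (2.30%) it was called in the control alone, beside 2.29% over all control MYOD peaks. Both lists had it at 581 sites and neither at 1086 (52.1%).

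Few sites without a MYOD call in the knockdown also lacked an H3K27ac call that the control had. Of the control-only sites that were marked in the control, 7.63% (interval 5.80 to 9.97) were not marked in the knockdown, and of the kept sites 5.21% (4.24 to 6.40). At a -log10 p of 20 or more these shares were 18.9% (7 of 37 sites, 9.48 to 34.2) and 4.37% (3.08 to 6.17). In gene bodies they were 12.4% (8.65 to 17.4) and 6.04% (4.47 to 8.12). At lower scores, at promoters and in intergenic DNA the intervals of control-only and kept sites overlapped. At the 581 sites marked in both lists, the H3K27ac peak had a median fold of 5.80 in the knockdown and 4.69 in the control and a median width of 896 and 512 bp, and its fold was higher in the knockdown at 76.4% of sites. At kept sites marked in both lists the fold was higher in the knockdown at 82.6%. The knockdown H3K27ac list was also the longer one, with 38457 peaks against 25356. After it was shortened by score to the length of the control list, the difference at control-only sites was 8.01 points (6.26 to 9.75), or 38.2% against 30.2%. At kept sites it was then 12.9 points (11.5 to 14.3).

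Compared with kept peaks, control-only peaks as a whole carried H3K27ac less often in either list. The share marked in the knockdown was 45.6% at control-only and 63.1% at kept peaks, a difference of -17.5 points (-20.1 to -14.9). The share marked in the control was 30.2% and 43.7%, a difference of -13.6 points (-16.1 to -11.0). By direct overlap the gap was widest among the strongest peaks. Median widths at a score of 20 or more were 249 bp at control-only and 353 bp at kept peaks, and 224 and 253 bp below 10. The part of peak width in the overlap was not tested. At a -log10 p of 20 or more, 38.9% of control-only and 67.7% of kept peaks were marked in the knockdown (-28.9 points, -36.5 to -20.7), and 23.6% and 49.4% in the control (-25.8 points, -32.3 to -18.1). GC content moved with this contrast, and among peaks with 55% GC or more the difference in the control list was -4.84 points (-8.84 to -0.784).

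**Figure D3:**
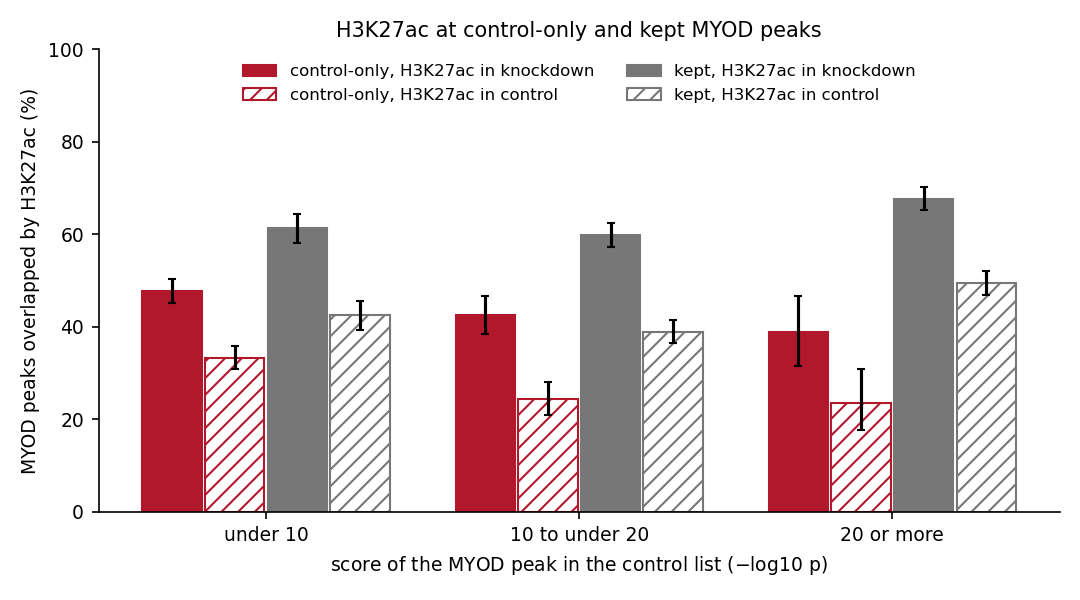
Share of MYOD peaks overlapped by H3K27ac (%, bars with Wilson 95% intervals) by score in the control MYOD list; filled bars show H3K27ac of the knockdown, hatched bars H3K27ac of the control. Red control-only bars lie below the grey kept bars of the same list in every class, from 47.7% against 61.3% at low scores to 38.9% against 67.7% at high scores in the knockdown.

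Much of the mark at strong control-only peaks lay beside the summit and not over it. Of the 157 control-only peaks at 20 or more, 10.2% had H3K27ac of the knockdown at the summit base and 58.6% had it 300 bp to the left. In the control list the values were 0.637% at the summit and 45.2% at 400 bp to the left. Kept peaks of the same score class had 28.9% at the summit in the knockdown and 10.9% in the control. When H3K27ac within 500 bp was counted, strong control-only peaks were marked at 73.9% against 86.1% for kept peaks in the knockdown, and at 68.2% against 72.5% in the control, where the difference of -4.31 points had an interval of -12.3 to 2.88. Below a score of 10 the shares within 500 bp were 59.9% against 74.1% in the knockdown (-14.2 points) and 46.6% against 57.7% in the control (-11.2 points), so by this measure the gap was not widest among the strongest peaks.

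**Figure D4:**
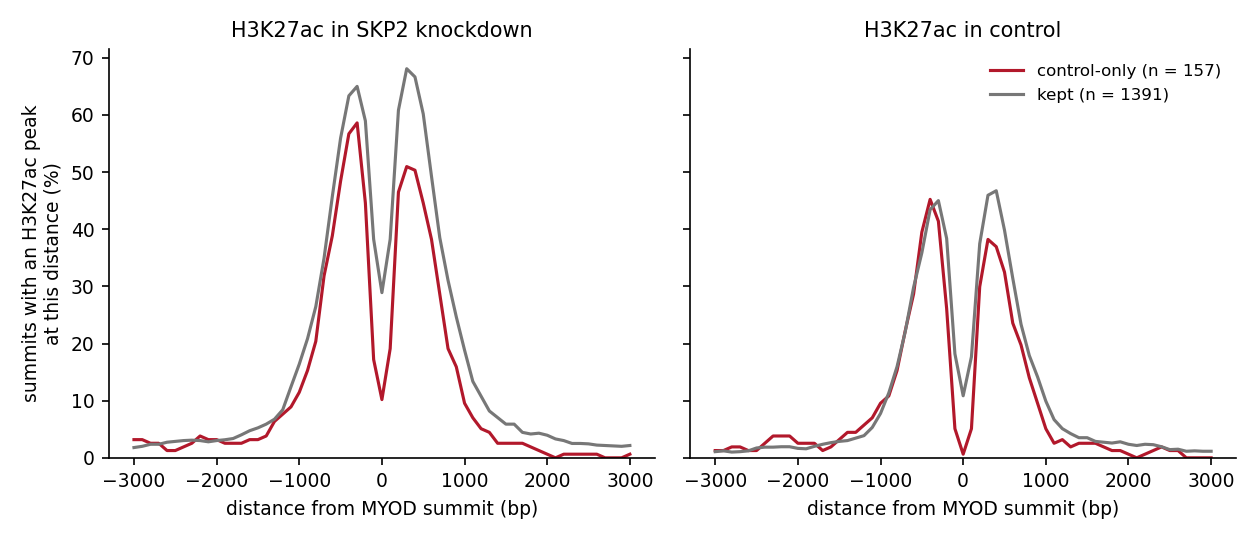
Share of MYOD summits with an H3K27ac peak (%) at each distance from the summit (bp), for peaks at a -log10 p of 20 or more: 157 control-only (red) and 1391 kept (grey), with H3K27ac of the knockdown (left) and of the control (right). Each curve has a dip at the summit between flanking maxima, and the control-only dip reaches 10.2% in the knockdown and 0.637% in the control.

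Some of the 12 highest peaks showed this arrangement singly and others did not. H3K27ac overlapped 5 of them in the knockdown and 3 in the control, and 7 in neither list, but 4 of those 7 had H3K27ac within 500 bp in both lists. At PPP1CB the nearest H3K27ac peak was 35 bp away in the knockdown and 24 bp in the control, and at PMAIP1 39 and 44 bp. NTMT2 lay 4976 bp from the mark in the knockdown and 33065 bp in the control, and the SLBP intron 11984 and 11866 bp.

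Among control-only peaks marked in the knockdown alone, the 8 of highest score were the MAN1C1 intron, HNRNPLL, TUT7, SSR3, DYNLL2 and 3 sites on chromosomes 12, 18 and 2 without a TSS in 100 kb. At the chromosome 2 site the MYOD peak had 39 fragments and the H3K27ac peak of the knockdown an 8.09-fold enrichment, with the control mark 21 bp away. At DYNLL2, which encodes a dynein light chain, the MYOD peak had 38 fragments and the H3K27ac peak was 7.59-fold and 1522 bp wide in the knockdown, with the control mark 38 bp away. HNRNPLL, a splicing regulator gene, had 49 MYOD fragments and 4.52-fold H3K27ac, with the control mark 187 bp off. SSR3, whose nearest site lay in intron 13 of KCNAB1, had no control mark for 19030 bp. Over all 371 such sites, 41.0% had an H3K27ac peak of the control within 500 bp.

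The 8 strongest peaks marked in the control alone were near FRS2, HYKK, TULP4, SRPK2 and ID1, in coding exon 11 of GPI, in intron 4 of GRK5, and at a chromosome 6 site without a TSS in 100 kb. The central 31 bases of the SRPK2 peak occur 129 times in hg38. FRS2 encodes an adaptor of FGF receptors: the MYOD peak -54.4 kb from its TSS had 37 fragments, the H3K27ac peak of the control was 4.53-fold, and no H3K27ac of the knockdown lay within 53600 bp. ID1 encodes an inhibitor that holds E proteins away from DNA, and its peak -9.01 kb from the TSS had 28 fragments and a control H3K27ac fold of 3.42, with the knockdown mark 31 bp away. The glycolytic enzyme gene GPI had 37 MYOD fragments with 3.80-fold H3K27ac in the control and none for 10107 bp in the knockdown. Over all 48 sites these marks had a median fold of 3.77, beside 4.07 over the whole control H3K27ac list, and 11 reached a -log10 p of 10. An H3K27ac peak of the knockdown lay within 500 bp of 19 of the 48 sites (39.6%).

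Promoters, defined as 2 kb around the TSS, took 18.3% of control-only and 19.9% of kept peaks (-1.61 points, -3.68 to 0.51), and 24.7% of knockdown-only peaks. Gene bodies took 45.3% and intergenic DNA 36.5% of the control-only class. Among peaks of like score the promoter share was lower in the control-only class, with 24.02% against 31.5% below 10, 8.71% against 19.1% from 10 to under 20 and 1.27% against 12.7% at 20 or more. Among peaks with 55% GC or more it was higher, by 6.41 points (2.502 to 10.4). The direction of this contrast thus differed between the split by score and the split by GC content. Control-only promoter sites were marked by H3K27ac at 75.3% in the knockdown and 59.1% in the control, gene-body sites at 37.9% and 23.1%, and intergenic sites at 40.3% and 24.4%. Kept promoter sites were marked at 78.0% and 59.6%, so the difference between control-only and kept sites at promoters was -2.67 points in the knockdown (-8.05 to 2.45) and -0.594 in the control (-6.69 to 5.41). The lower share of marked sites was thus resolved in gene bodies (-21.9 and -16.4 points) and intergenic DNA (-18.7 and -15.6 points) and not at promoters.

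E-boxes were frequent in the class but less so than at kept peaks. CAGCTG, searched on both strands within 100 bp of the summit, was found in 53.2% of control-only peaks, 70.6% of kept peaks (-17.4 points, -20.0 to -14.8) and 53.3% of knockdown-only peaks. Windows of the same size 2 kb away from control-only peaks held it in 8.79%. Peaks with 2 or more CAGCTG were 12.5% of the control-only and 24.01% of the kept class, and an E-box of any form (CANNTG) was found in 90.1% and 97.6%, beside 66.7% of the windows 2 kb from control-only peaks. Part of the CAGCTG difference went with score: it was -12.3 points below 10, -4.78 from 10 to under 20 and -6.45 (-14.3 to 0.43) at 20 or more. Where CAGCTG was present, its centre was within 20 bp of the summit in 63.8% of control-only, 70.0% of kept and 61.9% of knockdown-only peaks.

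Other E-box forms and motifs divided differently. CAGGTG was found in 35.7% of control-only, 45.1% of kept and 45.01% of knockdown-only peaks, and CATCTG in 19.2%, 18.96% and 18.4%. The MEIS-type motif TGACAG was found in 20.5% of control-only and 28.4% of kept peaks, beside 12.9% of windows 2 kb from control-only peaks. Below a score of 10 these shares were 18.4% and 20.2% (-1.81 points, -5.13 to 1.43), and in no score class did the interval of the MEIS difference exclude 0. AP-1 (TGANTCA) was found in 12.2% and 11.7%, and the TEAD motif GGAATG in 16.4% and 15.9%, and over all peaks neither interval excluded 0. Within single score classes 2 did: AP-1 was found in 11.3% of control-only and 8.60% of kept peaks below 10 (2.72 points, 0.211 to 5.13), and TEAD in 20.5% and 15.6% from 10 to under 20 (4.95 points, 1.21 to 8.95). These motifs are short, can overlap one another and are counted as letters, not as occupied sites.

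Within 10 kb of 1784 of 20007 protein-coding genes (8.92%) there was at least 1 control-only peak. In 541 of these genes a kept peak was present too. All control peaks were control-only in 1243 genes, of which 878 had no MYOD peak in the knockdown list and 365 had a knockdown-only peak instead. No control-only peak lay within 10 kb of MYOD1, MYOG, SKP2, CDKN1A, CDKN1B or CDKN1C, and the nearest to any of them was 13.1 kb from CDKN1C, the gene of the CDK inhibitor p57.

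FGFR4, a receptor tyrosine kinase gene that is a marker of the muscle lineage and of rhabdomyosarcoma, had 3 control MYOD peaks and all were control-only. They lay 11.7, 14.0 and 19 kb downstream of the TSS, beyond the 3′ end of the gene, with 26, 26 and 20 fragments and folds of 8.002, 7.60 and 7.10. Each held CAGCTG, and the nearest knockdown MYOD peak was 198 kb from the first of them. H3K27ac near the sites was called in both lists, at 59 bp in the knockdown and 61 bp in the control from site 1, and at 3 and 75 bp from site 3. H3K27ac at the FGFR4 promoter was called in the control alone, as a weak peak of 3.66-fold. None of the 3 MYOD sites thus had a call in the knockdown, and the mark beside 2 of them was called in both lists.

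Of 20007 protein-coding genes, 50 had 2 or more control-only peaks and no other MYOD peak of either list, FGFR4 among them. Genes with 2 or more control peaks were not counted, and 35.9% of all control peaks were control-only. The genes named here ran in length from 11.2 kb (FGFR4) to 498 kb (CACNA2D1). CACNA2D1, a regulatory subunit of voltage-gated calcium channels, had 4 control-only peaks over its introns with folds of 3.29 to 5.66. H3K27ac was called 22 times across this gene in the knockdown and 9 times in the control. LPAR1, a lysophosphatidic acid receptor gene, had 3 peaks with folds of 3.98 to 8.46, DAPK1, a death-associated kinase gene, 3 with folds of 3.37 to 8.39, and ADAMTS17, a secreted metalloprotease gene, 3 with folds of 4.81 to 6.49. All 3 ADAMTS17 sites carried H3K27ac in both lists. IL20RA, ABLIM1 and ARMC9 had 2 each.

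**Figure D5:**
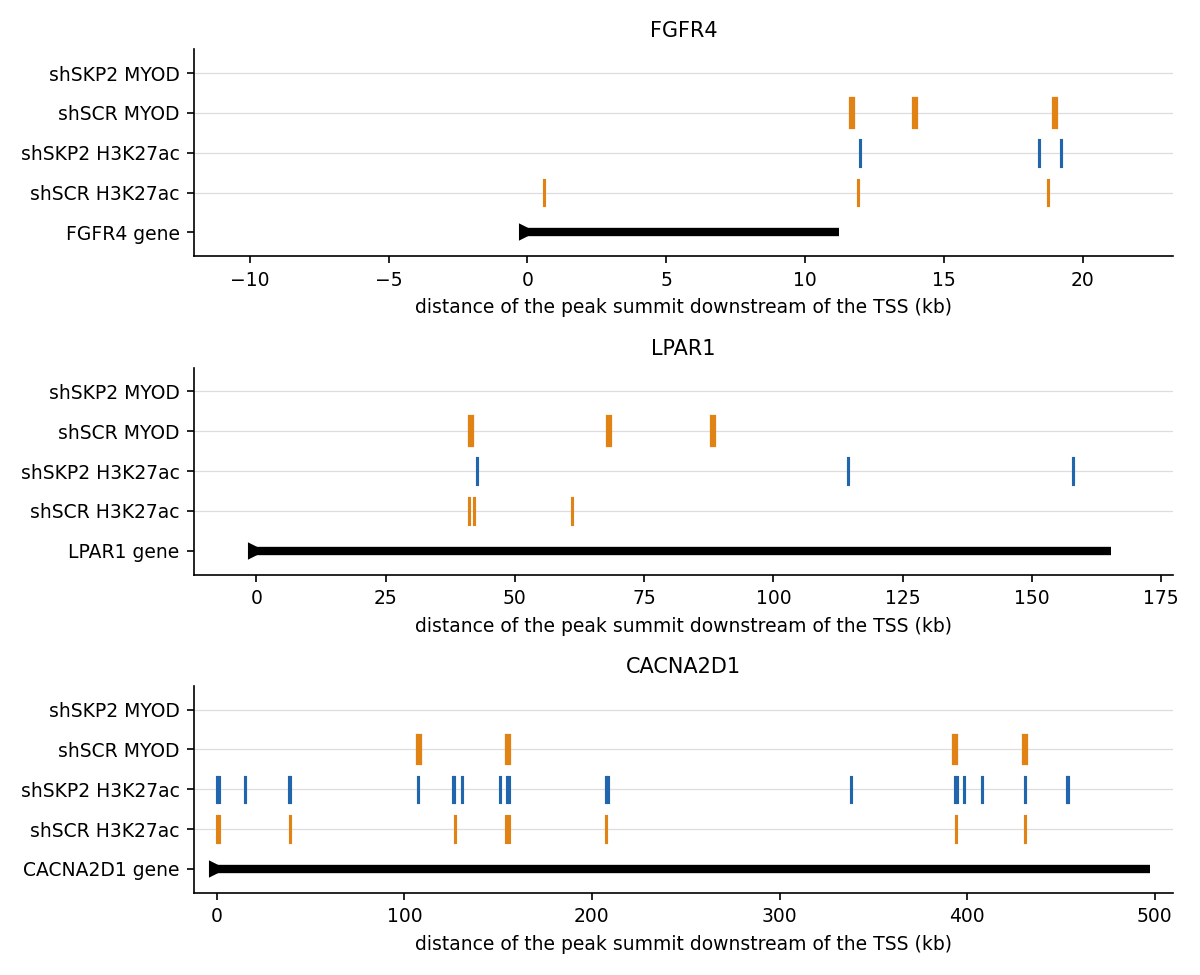
Summits of MYOD and H3K27ac peaks of the knockdown (blue) and the control (orange) around FGFR4, LPAR1 and CACNA2D1, by distance downstream of the TSS (kb); the black bar is the gene, from its TSS at 0. The knockdown MYOD row is empty at each gene, while H3K27ac is called in both rows (3 and 3 peaks at FGFR4, 3 and 3 at LPAR1, 22 and 9 at CACNA2D1).

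In 29 of the 20007 protein-coding genes 3 or more control-only peaks were counted. KCNMA1, the gene of the large-conductance calcium-activated potassium channel, had 7 control-only, 2 kept and 5 knockdown-only peaks over 769 kb. Its control-only folds ran from 3.14 to 8.02, and H3K27ac overlapped none of these 7 sites in either list. Some had the mark beside them. MYOD summits 757.7, 674.7 and 392.9 kb downstream of the TSS had knockdown H3K27ac summits at 758.0, 675.1 and 392.3 kb. The MYOD summit at 329.2 kb had a control H3K27ac summit at 328.7 kb, and the remaining sites had none so near. PRKG1, a cGMP-dependent kinase gene, had 4 over 1308 kb, of which 3 carried H3K27ac in the knockdown and 2 in the control. PHLDB2 and ANTXR1 had 4 each, MAN1C1 had 3, and CABLES1, whose product binds cyclin-dependent kinases, had 4, of which 3 were counted for its overlapping neighbour TMEM241 as well.

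The gene lists were read against the 8.92% of all protein-coding genes. Kept peaks lay within 10 kb of 15.7% of all genes, and of 19 of the 50 sarcomere and 10 of the 23 fusion genes. Of the control MYOD peaks at the genes of each list, the control-only share ran from 18.5% (myogenic regulators) to 34.8% (E proteins, and fusion). It was 35.9% over all control peaks, so no list had a higher control-only share than control MYOD peaks in general. Of 24 myogenic regulators 5 had a control-only peak (MEF2D, PAX3, EYA4, TEAD4 and RUNX1), and in all 5 a kept MYOD peak was present in the same domain. The strongest of them was in intron 3 of EYA4, a transcriptional coactivator gene, with 24 fragments and 5.29-fold enrichment, and a knockdown peak lay 114 bp away. TEAD4 had 15 fragments and 4.34-fold enrichment, and MEF2D 18 and 3.26-fold.

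Of 27 genes of E proteins and antagonists of MYOD, 7 had a control-only peak: TCF4, TCF12, ID1, ID3, HES1, ZEB2 and NOTCH1. TCF12 encodes the E protein HEB, a dimer partner of MYOD, and its peak in intron 13 had 23 fragments over a background of 1.64, a 9.10-fold enrichment, with 3 CAGCTG and no knockdown peak for 1209 kb. ID1 had a pair of control-only peaks on either side of the gene with 28 and 15 fragments, and ZEB2, a repressor that binds E-boxes, had 22 fragments and 3.71-fold enrichment. A knockdown-only peak was called elsewhere in the domain at ID1, ID3, ZEB2, TCF4 and NOTCH1, and at NOTCH1 a knockdown peak lay 216 bp from the control-only site.

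Genes of the sarcomere and contraction were reached in 10 of 50 cases. SMPX, which encodes a small muscle protein, had the strongest, in intron 3 with 34 fragments and 10.4-fold enrichment, and neither H3K27ac list marked it. MYPN, the gene of the sarcomeric protein myopalladin, had a peak in intron 1 with 35 fragments and 5.46-fold enrichment, and ACTN2, the gene of the Z-disc protein alpha-actinin, one with 20 fragments and 7.65-fold enrichment. Both were marked by H3K27ac in the knockdown alone. The others were ACTC1, MYLK2, TNNT1, TNNC2, TPM3, MYOZ3 and CSRP3, with folds of 3.47 to 5.46, and 5 of the 10 genes had no MYOD peak in the knockdown list.

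Of 23 genes of fusion, adhesion and membrane 8 had a control-only peak. ITGA7, the gene of the laminin receptor subunit of muscle, had the strongest in intron 1 with 34 fragments and 8.23-fold enrichment. BOC, a cell-surface coreceptor gene of myogenesis, followed with 20 fragments and 5.97-fold, and SGCD, a sarcoglycan gene, with 17 and 5.79-fold. Each of the 8 genes had another MYOD peak in the knockdown list within its domain. Calcium handling and neuromuscular junction genes were reached in 4 of 29 cases, CAMK2B with 55 fragments being the strongest, before CACNA2D1 with 28 and 16 fragments at its leading sites, while JSRP1 and RAPSN had 14 and 11.

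Cell cycle genes and CDK inhibitors were reached in 5 of 33 cases: RB1, CCND3, CDK6, E2F3 and CDT1. CCND3, the cyclin D3 gene, had a pair of control-only peaks with 28 and 21 fragments beside 4 kept ones, CDT1, a replication licensing gene, one of 15 fragments, and CDK6 one of 23. Apoptosis and stress genes were reached in 3 of 31 cases, AVEN with 45 fragments and 11.7-fold enrichment, BMF with 21 and MCL1 with 17. RAS-ERK and AP-1 response genes were reached in 3 of 32 cases, ETV1 with 28 fragments, SPRY4 with 17 and JUND with 13, and no kept peak was called at any of the 3. Growth factor receptor and ligand genes were reached in 3 of 24 cases, FGFR4 at its 3 sites, IGF2 with 12 fragments and FGFR1 with 14. Markers of other cell types were reached in 1 of 30 cases (RUNX2).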

How the data were processed

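Peak lists of 4 libraries were analysed. Per the study's methods, micrococcal nuclease-digested chromatin was immunoprecipitated with a Drosophila spike-in, aligned with BWA (0.7.17) to GRCh38, called with MACS3 against input with 1 replicate per condition, and cleared of an exclusion list. Peaks were called per library. The fold deposited by the authors is the summit pileup over local background, the deposited -log10 p and -log10 q values describe that summit too, and the score column deposited by the authors repeats the -log10 p multiplied by 10 without its decimals. The stated threshold was a -log10 p of 5 but the deposited values began just above 4. Whether spike-in scaling entered peak calling is not stated in the sources used here, so folds do not measure absolute occupancy.

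Here 1 peak outside chromosomes 1 to 22, X and Y was left out of each H3K27ac list. Summit fragments x and background were recovered from fold = (x + 1) / (background + 1) and the Poisson p, within 0.001, for all 2086 control-only peaks; overlap and interval functions and this step were tested on simulated data. Positions came from GENCODE release 44 (canonical transcripts of protein-coding genes), sequence from hg38, and repeats from exact matches of the 31 central bases on either strand. Python 3.11.15, pandas 2.3.3, scipy 1.17.1 and pysam 0.24.0 were used. Shares carry Wilson, differences Newcombe and paired differences normal 95% intervals; no test between groups was possible. The sites and the 11 gene lists (333 entries) were chosen with earlier results of these data known; a gene list result and some sequences are not reported here. Named were the 12 highest control-only peaks, the 8 highest marked by H3K27ac in 1 list alone, the 3 highest of each gene list, at most 8 genes with 3 or more control-only peaks or with 2 or more and no other, the 3 sites nearest the limit on either side, and 6 fixed loci. The further genes listed for a count were chosen after their values were seen.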

Additional observations from a re-analysis of the deposited data

How the results depend on the processing

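With 1 library per group, replicates could not be left out. No pairing of libraries across replicates was possible. The paired differences in H3K27ac pair the knockdown and control calls at the same site. The control-only share of 35.9% became 20.3% for control peaks at a -log10 p of 10 or more, 34.3% with both lists at 5 or more, 42.5% with the knockdown list shortened to the control length, 45.3% with 50% reciprocal overlap and 34.6% when a knockdown peak within 500 bp counted as shared. Without peaks whose central 31 bases recur in the genome it was 35.3%. The excess of H3K27ac in the knockdown over the control at control-only sites, 15.5 points, was 8.01 with the knockdown H3K27ac list shortened, 13.7 for H3K27ac within 500 bp and 17.51 for sites at 10 or more, and 15.3 to 15.7 under the remaining alternatives. The difference in H3K27ac between control-only and kept peaks stayed below 0 throughout. By score it was -13.6 (under 10) and -28.9 (20 or more) in the knockdown list and -9.23 and -25.8 in the control list. By GC content from low to high, a split chosen after seeing the data, it was -21.7, -22.6 and -9.86 in the knockdown list and -17.3, -18.7 and -4.84 in the control list. The promoter difference was -7.51, -10.4 and -11.5 points from low to high score. By GC it was 0.717 in the middle class and turned to 6.41 in the high class; the cause was not tested. The CAGCTG difference was -12.3, -4.78 and -6.45 by score and -11.2 and -14.5 in the low and middle GC classes. With 50 kb around genes, 17.2% had a control-only peak. Of 42 comparisons with an alternative, 13 stayed within the interval of the value as reported.

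Depth sets what the lists can show. The weakest control-only peaks rest on 8 fragments, and a site just under the threshold in the knockdown cannot be told from an empty one. GC content, score and promoter share move together, and their parts were not separated. Intervals treat sites as independent, which neighbouring peaks are not.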

Other observations

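The RUNX-type motif TGTGGT was found in 17.3% of control-only and 14.8% of kept peaks (2.50 points, 0.543 to 4.51), beside 14.9% of windows 2 kb from control-only peaks. At a -log10 p of 20 or more the shares were 28.03% and 15.9%, a difference of 12.1 points (Newcombe 95% interval 5.39 to 19.8). Within each GC class, which pooled peaks of all scores, the interval of the difference held 0, with 22.7% against 21.9% under 45% GC. The difference at high scores was not split by GC content. The SP1 and KLF motif GGGCGG was found in 16.01% of control-only and 19.4% of kept peaks.

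The central 31 bases of the peak recurred in hg38 at 112 control-only peaks (5.37%, Wilson 95% interval 4.48 to 6.42) and 117 kept peaks (3.14%), a difference of 2.23 points (1.15 to 3.40), and at 4.36% of knockdown-only peaks. Among the 157 strongest control-only peaks 10 recurred, and TNFSF4 (13 copies) and SRPK2 (129 copies) were among them.

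By chromosome the control-only share ran from 29.9% on chromosome 19 (86 of 288 peaks, 24.9 to 35.4) to 47.1% on X (24 of 51, 34.1 to 60.5). The peak numbers in the knockdown list skipped 427 values, and 7 control-only peaks (0.336%) lay where a number was skipped.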
